A study of Mus musculus with 4 samples.

Results

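The genes described are those that encode the proteins of the mitochondrial ribosome and carry an Mrpl (large subunit) or Mrps (small subunit) symbol. They were found as every row of the authors' deposited table whose symbol is Mrpl or Mrps, then a number and at most 1 letter, which gave 76 genes with 79 transcript rows among 16545 symbols with 18061 transcript rows. By symbol, 47 genes (49 rows) belong to the large subunit and 29 genes (30 rows) to the small subunit. The rule used no measured value.

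Mitochondria carry their own ribosome, which translates the few membrane proteins encoded by mitochondrial DNA, all of them subunits of the respiratory chain and of ATP synthase. Its RNA comes from mitochondrial DNA, but every one of its proteins is encoded in the nucleus, made in the cytosol and imported. Some of these proteins descend from bacterial ribosomal proteins, and the others are found only in mitochondrial ribosomes.

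The RNA came from mouse leukaemic cells driven by MLL-AF9, an oncogene that fuses the gene of the histone methyltransferase MLL to that of AF9, a factor of transcription elongation complexes. The cells were taken from bone marrow of C57BL/6 mice and grown in liquid culture, and every sample, controls included, was Ring1a-/-;Ring1bf/f Cdkn2a-/-. RING1A and RING1B are the alternative ubiquitin ligases of Polycomb repressive complex 1, and Cdkn2a encodes the p16 and p19 tumour suppressors. The 2 samples of 1 group received ethanol (EtOH) for 72 h, and the 2 samples of the other received OHT, the usual short name of 4-hydroxytamoxifen, which is used to switch on a Cre recombinase fused to an oestrogen receptor. OHT samples carry the label RingKO, so the comparison is between cells meant to lose RING1B on top of RING1A and cells without RING1A alone. The recombinase and its promoter, the number of mice or clones, and whether samples of 1 group were separate cultures are not given in the sources used here. The p-values can therefore speak only of these samples, and their spread may be technical. No sample without the floxed allele received OHT, so the agent and the loss of the gene cannot be told apart.

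The authors' table gives 1 mean of normalised reads per group and no value per sample. Each group's means could be solved to the whole reads of 2 libraries, here called A and B, which held 6255320 and 3841243 reads in the EtOH group and 5687967 and 4509718 in the OHT group. The letters are arbitrary, carry no link between groups and are not the replicate numbers of the labels. Values per library are normalised reads, meaning solved reads plus 1 divided by the library's size factor. Rnf2, which encodes RING1B, had 687 and 585 normalised reads in the EtOH libraries and 716 and 798 in the OHT libraries, so its total transcript reads were not lower with OHT, and reads over the whole transcript say nothing about a deleted exon. The genes labelled as deleted in every sample also had reads, with 50.6 and 85.9 (EtOH) and 149 and 94.9 (OHT) for Ring1, which encodes RING1A, and group means of 49.8 and 48.5 and of 29.9 and 31.6 for the transcripts of Cdkn2a. All 11 myeloid markers were measured, among them the myeloid regulators Spi1 (EtOH mean 1353, OHT mean 1460) and Cebpa (1097 and 1206), and none passed the authors' test. Csf1r, a receptor of the monocyte lineage, moved most, with 230 and 125 normalised reads in the EtOH libraries and 1472 and 747 in the OHT libraries (adjusted p = 0.0666 by the authors and 0.00396 by limma-voom on the solved reads). Kit, a progenitor marker, was near the floor (2.72 and 5.03), which need not mean low expression. Some markers differed severalfold between libraries of 1 group. Mpo had 19.1 and 161 normalised reads with EtOH and 352 and 51.4 with OHT. Elane had 111 and 529 with EtOH and 505 and 161 with OHT. Ptprc had 103 and 24.7 with EtOH but 54.6 and 59.2 with OHT. Spi1 (1194 and 1512, then 1459 and 1461) and Cebpa (1186 and 1009, then 1120 and 1292) differed less. In the authors' deposited table the erythroid marker Epor rose from 7.22 to 67.3 (adjusted p = 0.00631) and the stromal marker Col1a1 from 5.33 to 30.3 (adjusted p = 0.0361). The summed normalised reads of each marker list in the EtOH and the OHT libraries were 19.9 to 20.8 and 61.3 to 94.9 for 3 erythroid genes, and 31.2 to 42.3 and 47.0 to 58.1 for 5 stromal and endothelial genes. They were 2.49 to 2.60 and 2.23 to 3.36 for 2 T cell genes, and 4.15 to 7.81 and up to 10.1 for 2 B cell genes. Their part in the results was not tested.

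With OHT, transcripts of both mitoribosomal subunits were mostly lower, by modest amounts. Over the 79 member rows the log2 fold change (OHT over EtOH) of the authors' deposited table had a median of -0.49, against 0.04 over all transcripts. It was -0.48 over the 49 large-subunit rows and -0.49 over the 30 small-subunit rows. The sign was negative in 72 of 79 rows, where 48.3% of all transcripts had a negative sign, and positive in 7 (background 51.7%). By the authors' test with an adjusted p under 0.05, 4 members fell (Mrpl19, Mrps28, Mrps5 and Mrpl44), against a background of 1.85% of all transcripts called lower. No member was called higher (background 3.62%). At an unadjusted p under 0.05 in the authors' deposited table, 19 of 79 rows were lower (background 6.64%) and 0 higher (background 7.82%). All 19 were among the 72 member rows with an EtOH mean of at least 100. Of 5553 other transcripts in the range of those 72, 869 were lower at the same threshold. By the authors' adjusted p under 0.05, 4.57% of these 5553 were called lower, so the 4 calls are near that share. In bulk RNA, fewer cells of a type and less RNA per cell cannot be told apart.

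**Figure D1:**
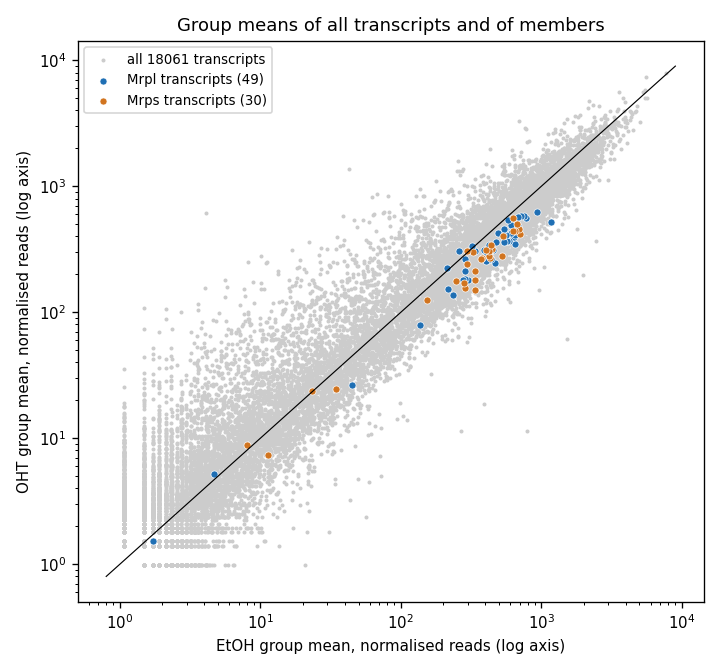
The mean of normalised reads with OHT (vertical axis) is plotted against that with EtOH (horizontal axis), both on log scales, for every transcript (grey) and for the large-subunit (blue) and small-subunit (orange) members. Most members (72 of 79) lie below the drawn line of equal means, inside the cloud of other transcripts.

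Of the large-subunit members, Mrpl19 had the largest fall. It encodes the counterpart of bacterial L19. Its normalised reads were 1053 and 1299 in the EtOH libraries and 491 and 556 in the OHT libraries. Both OHT libraries lay below both EtOH libraries, and the mean was 2.25 times lower in the authors' deposited table (log2 fold change -1.17, adjusted p = 0.00270). Mrpl44, a mitochondria-specific protein with a fold like that of ribonuclease III, had 605 and 703 normalised reads with EtOH and 333 and 363 with OHT. The groups did not overlap here either, and the mean was 1.88 times lower in the authors' deposited table (log2 fold change -0.91, adjusted p = 0.0479).

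Among small-subunit members, Mrps28, which takes the place of bacterial S1, had 291 and 384 normalised reads with EtOH and 161 and 141 with OHT. The higher OHT library was well below the lower EtOH library, and the mean was 2.24 times lower in the authors' deposited table (log2 fold change -1.16, adjusted p = 0.0188). Mrps5, the homologue of bacterial S5, had 522 and 534 normalised reads with EtOH and 243 and 315 with OHT. Its EtOH libraries were nearly equal and stood apart from the OHT pair, and the mean was 1.89 times lower in the authors' deposited table (log2 fold change -0.92, adjusted p = 0.0379).

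A limma-voom fit to the solved reads called these 4 members and 4 more lower, of 75 members fitted (background 5.49% of 11338 transcripts), and called none higher (background 9.72%). The 4 more were Mrpl35, Mrps22, Mrps31 and Mrps18b. Mrpl35, the homologue of bacterial L35, had 402 and 530 normalised reads with EtOH and 233 and 260 with OHT (limma adjusted p = 0.0346). Mrps22, a mitochondria-specific protein whose human gene is mutated in a respiratory chain disorder, had 331 and 348 with EtOH and 179 and 184 with OHT (limma adjusted p = 0.0319). Mrps31, which is also specific to mitochondria, had 304 and 267 with EtOH and 157 and 156 with OHT (limma adjusted p = 0.0434). For these 3 the groups were clearly apart, yet the authors' deposited table gives adjusted p-values of 0.0674, 0.0813 and 0.102.

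The limma-voom count depended on single libraries. It was 34 members when EtOH library A was left out (background 9.48%) and 6 when EtOH library B was (5.79%). Leaving out OHT library A gave 1 member (1.17%), and leaving out OHT library B gave 2 (3.28%). With all libraries it was 7 under TMM scaling (4.93%), 5 when scaled to total reads (4.3%) and 8 with no filter on low reads (4.43%). None of these fits called a member higher, although they called 14.1%, 7.55%, 7.01% and 9.23% of all transcripts higher with the libraries left out in this order, and 10.9%, 10.3% and 9.11% under the other settings. Mrpl19 was called in all of these fits, with limma adjusted p from 0.000369 to 0.0462 over the fits tried. Mrpl44 lost its call when OHT library A (limma adjusted p = 0.206) or B (0.0742) was left out, and so did Mrps28 (0.0750 and 0.0967). Mrps5 lost its call when OHT library A was left out (0.312).

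**Figure D2:**
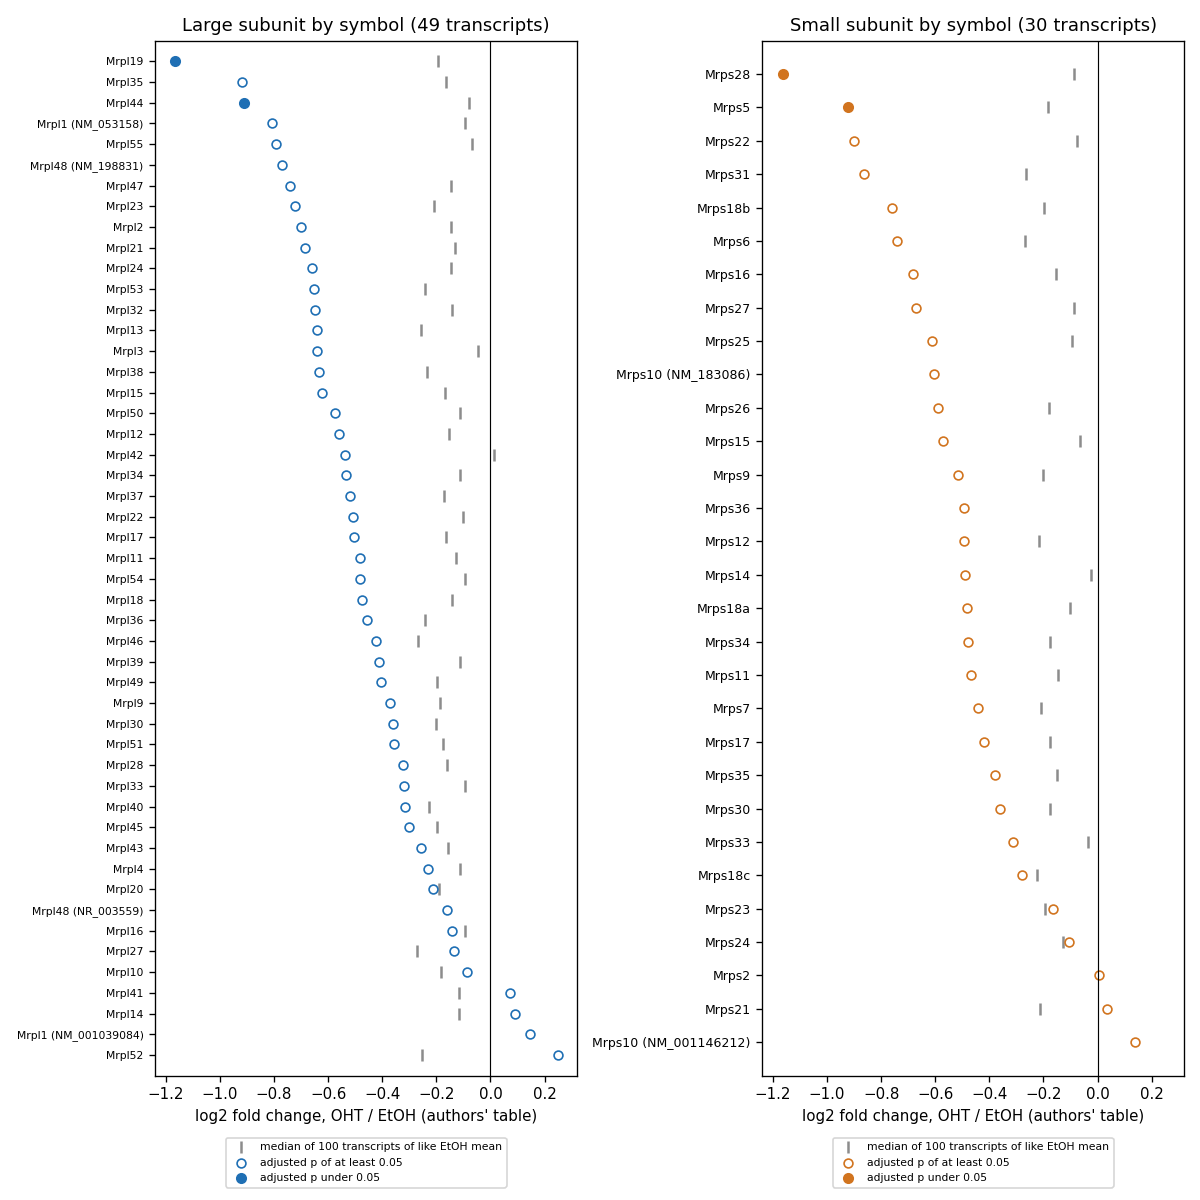
The log2 fold change (OHT over EtOH) of the authors' table is shown for each of the 49 large-subunit and 30 small-subunit transcript rows, in order. Filled points had an adjusted p under 0.05, and grey ticks mark, for members with a mean of at least 50, the median of the 100 other transcripts nearest in EtOH mean. Most points lie left of their own tick.

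The size of the differences varied between members, and whether it varied by more than the spread of these libraries was not tested. Of the 72 member rows with a mean of at least 50 normalised reads over both groups, 2 were over 2 times lower with OHT in the authors' deposited table (Mrpl19 and Mrps28). Another 24 were 1.5 to 2 times lower, 34 were 1.2 to 1.5 times lower, 8 were lower by less than 1.2 times and 4 were higher. Both OHT libraries lay below both EtOH libraries in 59 of all 79 rows, where 26.5% of all transcripts showed that order. The opposite order occurred in 0 rows (background 26.3%), and 20 rows overlapped. By subunit, OHT lay wholly below EtOH in 35 of 49 large-subunit and 24 of 30 small-subunit rows.

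Within the large subunit, the proteins around the polypeptide exit tunnel, where the growing chain leaves the ribosome, had a median log2 fold change of -0.65 over 7 genes in the authors' deposited table. These were Mrpl17, Mrpl22, Mrpl23, Mrpl24, Mrpl32, Mrpl45 and Mrpl47, with a range from -0.74 to -0.30, and none passed the authors' test. Mrpl47, the counterpart of bacterial L29, had the lowest of these values, with group means of 303 (EtOH) and 181 (OHT). Mrpl45, which helps to hold the ribosome at the inner membrane, had the value nearest to 0, with means of 716 and 581. The 7 genes of the central protuberance (Mrpl18, Mrpl27, Mrpl38, Mrpl40, Mrpl46, Mrpl48 and Mrpl55) had a median of -0.47. The 4 genes of the L7/L12 stalk, which recruits translation factors, had a median of -0.52 and spread from -0.65 to -0.09. Mrpl12, the stalk protein itself, had 704 and 1154 normalised reads with EtOH and 611 and 649 with OHT. Its EtOH libraries were further apart from each other than the lower of them was from the OHT libraries, and its adjusted p was 0.839 in the authors' deposited table. Mrpl10, which anchors the stalk, had 536 and 622 with EtOH and 558 and 533 with OHT. Its groups overlapped.

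Proteins of bacterial descent and proteins specific to mitochondria had like medians. With 1 row per gene, the 46 homologues of bacterial proteins had a median log2 fold change of -0.50 in the authors' deposited table (43 negative, 3 called lower), and the 28 mitochondria-specific proteins had -0.48 (26 negative, 1 called lower). Of other transcripts of like level, 63.1% were negative and 4.57% were called lower, so both counts of calls are near that share. In the large subunit, grouped by structure, the medians were -0.52 for 30 bacterial homologues and -0.42 for 18 mitochondria-specific proteins. In the small subunit they ran the other way, -0.49 for 16 and -0.59 for 9. These differences were not tested.

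Of the other members with the highest read means in the EtOH group (not divided by length), 3 showed less separation from the spread. Mrpl18, which in human cells takes part in carrying 5S ribosomal RNA into mitochondria, had 601 and 966 normalised reads with EtOH and 554 and 575 with OHT. In the small subunit, Mrps26 had 556 and 831 with EtOH and 446 and 476 with OHT. Mrps7, the homologue of the bacterial head protein S7, had 576 and 777 with EtOH and 480 and 516 with OHT. In these 3 genes the OHT libraries lay below both EtOH libraries, but EtOH library A was closer to them than to EtOH library B. The authors' deposited table gives them adjusted p-values of 0.925, 0.602 and 0.675.

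Of members with a mean of at least 50, only 4 had a higher mean with OHT, and none of the 4 passed a test. Mrpl52 had 216 and 305 normalised reads with EtOH and 324 and 294 with OHT (log2 fold change 0.25 and adjusted p = 0.931 in the authors' deposited table). Mrpl14, the homologue of bacterial L14, had 195 and 229 with EtOH and 230 and 221 with OHT. Mrpl41 had 289 and 350 with EtOH and 323 and 348 with OHT. Mrps21, the homologue of bacterial S21, had 250 and 345 with EtOH and 290 and 320 with OHT. The groups overlapped in each of these genes. They are short transcripts, of 418, 645, 776 and 405 bases. In the authors' deposited table the log2 fold change of members with a mean of at least 50 was negative for all 48 of at least 1000 bases (median -0.52) and for 20 of 24 shorter ones (median -0.48). Per length, the highest members in the EtOH group were Mrpl33 (886 normalised reads per kilobase with EtOH, 711 with OHT), Mrps21 (735 and 753), Mrpl12 (706 and 478) and Mrpl34 (704 and 486).

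The Mrps18 genes are paralogues that all descend from the gene of bacterial S18 and occupy different places on the ribosome. Mrps18b, a small-subunit protein, had 634 and 776 normalised reads with EtOH and 392 and 440 with OHT. Its groups did not overlap, with adjusted p = 0.137 in the authors' deposited table and 0.0437 by limma-voom. Mrps18a, which sits in the large subunit despite its symbol, had 369 and 484 with EtOH and 279 and 333 with OHT. Mrps18c, which holds the ancestral place in the small subunit, had 242 and 348 with EtOH and 254 and 232 with OHT. Only for Mrps18c did the groups overlap. The log2 fold changes in the authors' deposited table were -0.76, -0.48 and -0.28 in this order, and the differences between the paralogues were not tested.

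Symbol and structure also part in Mrps30, a large-subunit protein, and in Mrps36, which is now known as a subunit of the 2-oxoglutarate dehydrogenase complex. Mrps30 had 410 and 469 normalised reads with EtOH and 316 and 368 with OHT, with no overlap and adjusted p = 0.812 in the authors' deposited table. Mrps36 had 31.5 and 37.8 with EtOH and 20.2 and 29.0 with OHT. Sorting by structure left the medians at -0.48 over 51 large-subunit rows and -0.49 over 27 small-subunit rows.

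The 7 rows with a mean under 50 included Mrps36 and transcripts of Mrpl48, Mrpl1, Mrps10 and Mrps2. Mrpl48, a protein of the central protuberance, had group means of 44.8 (EtOH) and 26.3 (OHT) for its main transcript, and its non-coding transcript had 1 read in each group. Mrpl1, the protein of the mobile L1 stalk, had 111 and 164 normalised reads with EtOH and 92.4 and 64.8 with OHT for its main transcript, with no overlap. Its other transcript, one of the low rows, had means of 4.68 and 5.17. Both transcripts of Mrps10 (11.2 and 7.41, and 7.99 and 8.80) and the single row of Mrps2 (23.5 and 23.6) were low. No difference was detectable in these rows of Mrps10 and Mrps2 with so few reads, and a low row need not mean low expression of the gene.

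The EtOH libraries themselves differed in these genes. EtOH library B held more normalised reads than EtOH library A in 70 of the 72 members with a mean of at least 50, against 42.9% of other transcripts in the same range. As medians over the 72 members, relative to each member's EtOH mean, the log2 levels were -0.21 and 0.19 in EtOH libraries A and B and -0.58 and -0.46 in OHT libraries A and B. The corresponding medians of the other transcripts in range were 0.04, -0.04, -0.19 and -0.14. Both OHT libraries thus lay below the lower EtOH library, and the gap between the EtOH libraries was wider than that from the lower of them to either OHT library. The members' reads made up 0.570% and 0.774% of all reads in the EtOH libraries and 0.487% and 0.501% in the OHT libraries. The OHT libraries differed less, with OHT library B above A in 54 of 72 members (57.1% of other transcripts).

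**Figure D3:**
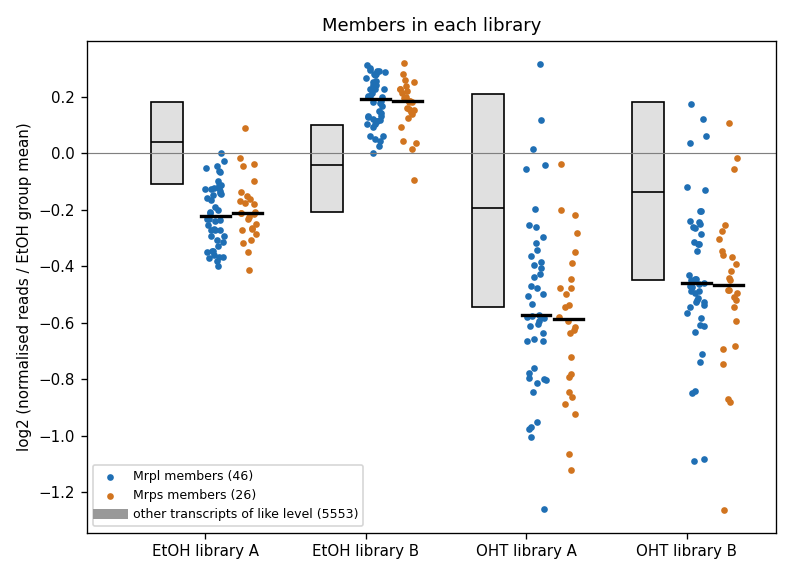
Each point is 1 member with a mean of at least 50, as log2 of its normalised reads over its EtOH mean, in each of the 4 solved libraries, with the median of each subunit as a black bar. Grey boxes span the quartiles of 5553 other transcripts of like level around their median, and the members' medians lie below those of the boxes in every library but EtOH library B.

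Transcripts of like level were also shifted downward, but less. Among 5553 other transcripts in the range of the 72 members with an EtOH mean of at least 100, log2 fold changes in the authors' deposited table had a median of -0.16, against -0.49 for the members. The sign was negative in 63.1% of them and in 68 of the 72 members. Both OHT libraries lay below both EtOH libraries in 42.6% of them and in 56 of the 72 members. The authors called 4.57% of them lower and 2.85% higher, against 4 and 0 of the 72 members. When each member was set beside the 100 other transcripts nearest in EtOH mean, 69 of 79 lay below their neighbours' median. The median member stood at percentile 23 of its neighbours, and the median difference from the neighbours' median was -0.36 on the log2 scale. In the limma-voom fits, the members' median minus that of all transcripts fitted was -0.40 with all libraries, -0.68 when EtOH library A was left out and -0.18 when EtOH library B was. Mrpl19 stood at percentile 2, Mrps28 at 5, and Mrps5 and Mrpl44 at 8. Mrpl52 stood at percentile 76. No test was made of the members as a list, since they share libraries and are not independent.

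Lists of genes that work beside the mitoribosomal proteins also had negative medians. Over all transcripts 48.3% were negative, 26.5% had both OHT libraries below both EtOH libraries and 1.85% were called lower, and over transcripts of like level these shares were 63.1%, 42.6% and 4.57%. The 7 mitoribosomal proteins under other symbols all had a negative log2 fold change in the authors' deposited table (median -0.66), with both OHT libraries below both EtOH libraries in all 7, and 1 was called lower. That was Ptcd3, a small-subunit protein with pentatricopeptide repeats, at 1115 and 1275 normalised reads with EtOH and 559 and 727 with OHT (adjusted p = 0.0324 in the authors' deposited table). Among 26 measured assembly and ribosomal RNA factors the median was -0.50 and 25 were negative. The assembly GTPase Mtg1 fell from 337 to 156 (adjusted p = 0.0163 in the authors' deposited table) and the rRNA methyltransferase Rnmtl1 from 139 to 59.2 (0.0356). Of 15 mitochondrial translation factors, 13 were negative (median -0.42). Among these counts, the negative signs of Mtif3 (means of 1.72 and 0.978) and Mtif2 (3.38 and 3.35) rest on very few reads. So does the positive sign of Tufm (2.72 and 2.80). The translation GTPase Guf1 fell from 483 to 202 (adjusted p = 0.00263 in the authors' deposited table) and the release factor Mtrf1 from 141 to 48.2 (0.00571).

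Of 19 measured mitochondrial aminoacyl-tRNA synthetases and related tRNA-charging enzymes, 18 were negative (median -0.60). The seryl-tRNA synthetase Sars2 was called lower in the authors' deposited table, with 339 normalised reads in EtOH and 146 in OHT (adjusted p = 0.0128). Of 10 genes of mitochondrial DNA maintenance and transcription, 9 were negative (median -0.58) and none passed the authors' test. The negative signs of Mterf1a (means of 1.72 and 0.978), Polg2 (9.12 and 7.55) and Ssbp1 (12.1 and 9.50) rest on few reads. Tfam, which packages mitochondrial DNA, had means of 603 and 368, while the DNA polymerase Polg had 766 and 918. Of 10 mitochondrial chaperones and proteases, 9 were negative (median -0.58), and the matrix protease Lonp1 fell from 2123 to 1118 (adjusted p = 0.0213 in the authors' deposited table).

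The 8 measured nuclear regulators of mitochondrial genes had a median of -0.16, and 6 were negative. The coactivator Pprc1 fell from 1154 to 631 (adjusted p = 0.0251 in the authors' deposited table). Gabpa, the DNA-binding subunit of the ETS factor GABP, had means of 963 and 740, and the nuclear receptor Esrra had 734 and 759. Nrf1 transcript reads were near the floor (4.68 and 4.61), which need not mean that the gene was barely expressed. The cytosolic ribosomal protein gene Rps24 was also low, with means of 6.57 (EtOH) and 7.54 (OHT). The medians of the 76 genes of its list were 898 and 777. The cause of such low rows was not tested. No gene of these mitochondrial lists was called higher by the authors, where 3.62% of all transcripts and 2.85% of those of like level were. The 76 cytosolic ribosomal protein genes cannot be set beside them, because their raw reads were nearly equal in all libraries. The library with the most reads held a median of 1.08 times those of the library with the fewest, over 67 genes with a mean of at least 50 reads, against 1.56 times for the 72 members and 1.63 times for the library totals. Equal reads in all 4 libraries alone give a log2 fold change of -0.12 after scaling, and the median of these genes was -0.21.

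**Figure D4:**
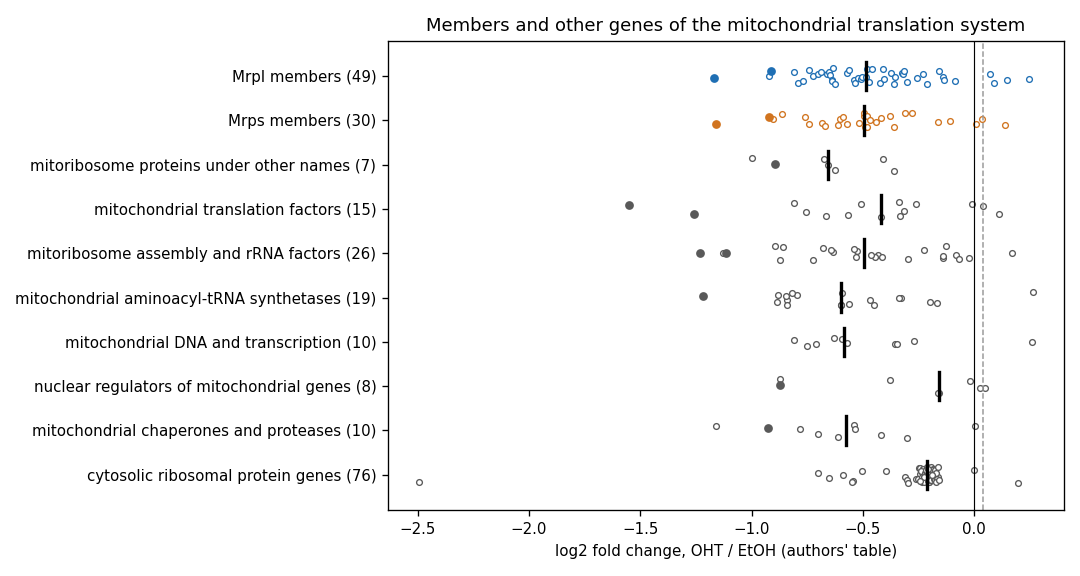
Each point is the log2 fold change (OHT over EtOH) of 1 transcript of the authors' table, by list, with the list's median as a bar, filled points for an adjusted p under 0.05 and a dashed line at the median of all transcripts (0.04). The mitochondrial lists have medians from -0.42 to -0.66, except for the nuclear regulators at -0.16, and the cytosolic ribosomal proteins, whose raw reads were nearly equal in all libraries, are drawn for completeness and not for comparison.

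The difference in which EtOH library was higher was not shared by every mitochondrial list. Summed normalised reads in EtOH libraries A and B were 3246 and 4380 for the mitoribosomal proteins under other symbols and 12068 and 14337 for the chaperones and proteases. They were 6771 and 6915 for the synthetases, 5055 and 4818 for the translation factors, and 3486 and 3290 for the genes of mitochondrial DNA. The OHT sums lay below both EtOH sums in each of these lists.

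Promoters of nuclear genes for mitochondrial proteins are known for sites of NRF1, nuclear respiratory factor 1, and of the ETS factor GABP. RefSeq promoters (build GRCm38.p6) were matched for 67 of the 76 genes and searched on both strands over 250 bases before the start. The NRF1 motif was searched as GCGCA, any 1 base, then GCGC, and the ETS motif bound by GABP as CCGGAAG. A match on the other strand reads GCGC, any 1 base, then TGCGC for NRF1, and CTTCCGG for ETS. The NRF1 letters were in 9 of 67 members (13.4%), against 10.9% of 4216 genes of like level and 7.60% of 11889 other table genes. Of these members, 8 were among 41 large-subunit genes and 1, Mrps21, among 26 small-subunit genes. The ETS letters were in 17 of 67 members (25.4%), against 19.1% of genes of like level and 13.1% of other table genes. These shares count a gene if any of its promoters matched. Counted per promoter, the shares of all 32851 promoters were 3.74% (NRF1) and 6.91% (ETS). The log2 fold change of the authors' deposited table had a median of -0.41 for members with the NRF1 letters and -0.49 without, and -0.51 and -0.49 for the ETS letters. Other motifs were the YY1 letters AAGATGGCG in 2 members (2.99%, against 1.52% of genes of like level), the E-box CACGTG in 5 (7.46%, against 9.82%) and TATAAA in 5 (7.46%, against 6.19%). A match is a description of letters and shows no binding.

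Upstream sequences of 100 bases are given for members that fell, that had negative values without passing the test and that did not fall, with the motif letters in capitals. Mrpl44 (chr1:79775918-79776017, plus strand) and Mrps5 (chr2:127587326-127587425, plus strand) both fell, the former with the NRF1 letters and the latter with no match in the stretch. Mrpl32 (chr13:14613070-14613169, minus strand) holds the NRF1 letters on both strands, and Mrpl12 (chr11:120484511-120484610, plus strand) holds them on the other strand. Both had negative values without passing the authors' test. Mrps21 (chr3:95871551-95871650, minus strand) holds the NRF1 letters on the other strand and had overlapping groups. Mrpl52 (chr14:54426809-54426908, plus strand), with the ETS letters on the other strand, had the highest log2 fold change. The sequences follow 5′ to 3′ on the gene's strand.
Mrpl44: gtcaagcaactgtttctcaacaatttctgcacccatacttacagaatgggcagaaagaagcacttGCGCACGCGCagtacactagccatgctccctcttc
Mrps5: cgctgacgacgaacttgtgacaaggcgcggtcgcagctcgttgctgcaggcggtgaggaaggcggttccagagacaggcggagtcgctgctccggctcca
Mrpl32: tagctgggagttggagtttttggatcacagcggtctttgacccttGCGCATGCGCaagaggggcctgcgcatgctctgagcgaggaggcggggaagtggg
Mrpl12: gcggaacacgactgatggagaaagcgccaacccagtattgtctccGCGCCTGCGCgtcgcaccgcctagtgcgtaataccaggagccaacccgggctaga
Mrps21: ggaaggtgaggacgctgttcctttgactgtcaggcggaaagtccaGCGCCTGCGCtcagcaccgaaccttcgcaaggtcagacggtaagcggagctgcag
Mrpl52: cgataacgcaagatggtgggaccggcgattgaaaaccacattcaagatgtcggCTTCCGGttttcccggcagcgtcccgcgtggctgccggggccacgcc

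The depth of reads per base limits how far the size of these differences can be read. No transcript of the 17634 with a known length held over 2 reads per base in any library, and the highest were 1.80, 1.76, 1.85 and 1.80 in EtOH libraries A and B and OHT libraries A and B. The elongation factor Eef1a1 had 2999, 2954, 2942 and 2954 reads in these libraries, although the libraries differed in total. Whether repeated reads were removed is not given in the sources used here. The members held a median of 0.355, 0.279, 0.274 and 0.224 reads per base and at most 0.921 (Mrpl52 in OHT library A). Where reads per base were higher, the read ratio of EtOH library B to A was also higher, with a median log2 ratio of -0.89 in the lowest of 10 bins of transcripts and -0.32 in the highest. The members stood above all transcripts of their own bin, at -0.27 against -0.65 in bin 8, -0.26 against -0.55 in bin 9 and -0.02 against -0.32 in bin 10. With reads expanded for a ceiling of 2 reads per base, an alternative chosen after the data were seen, limma-voom called the 4 members of the authors' test lower (background 3.51%) and none higher (12.8%). The same 4 were called with size factors taken from transcripts under 0.1 reads per base (background 4%, and 11.5% higher), which was also chosen after the data were seen. With expanded reads the members' median was -0.35, against 0.09 over all transcripts.

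**Figure D5:**
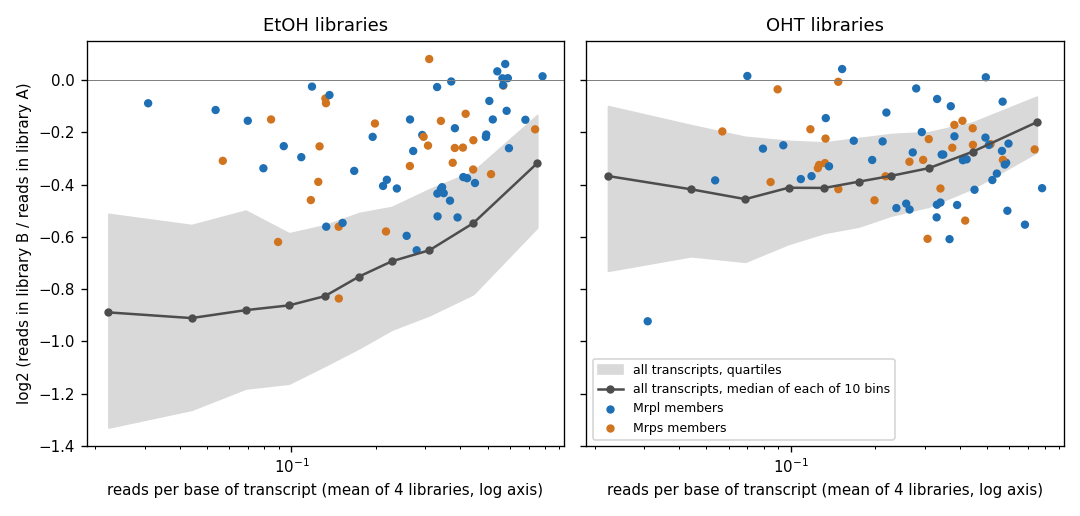
The log2 ratio of reads in library B to library A (vertical axis) is plotted against reads per base on a log axis, for each group. Points are members with a mean of at least 50, and the line and band give the median and quartiles of all transcripts in 10 bins. In the EtOH group the line rises from -0.89 to -0.32 and most members lie above it, while in the OHT group members lie on both sides of it.

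Some reads could belong to neighbouring genes, because the library kit named in the labels does not keep the strand and some overlaps lie on the same strand. In GENCODE M21 (GRCm38), 32 of the 76 genes share exon bases with another gene, and 3 have named pseudogenes. Counted per neighbouring gene, the largest share was that of Mrpl53, with 695 of 790 exon bases in common with Gm42688 on the same strand. Next were Mrps25 (4590 of 6576 with Nr2c2) and Mrps34 (1309 of 2064 with Mapk8ip3), both on opposite strands. Mrps34 also shares 763 of its 2064 exon bases with Nme3 on the same strand. Of the members called lower, Mrpl19 shares 1962 of 5450 exon bases with Gcfc2 on the opposite strand, and Mrpl44 shares 126 of 1644 with Wdfy1. The 42 genes with neither an overlap nor a named pseudogene (44 rows) had the same median of -0.49 in the authors' deposited table, with 38 negative, and 2 of them were called lower (Mrps28 and Mrps5). Of other transcripts of like level, 63.1% were negative and 4.57% were called lower, so the count of calls is near the latter share.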

How the data were processed

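RNA libraries of 4 samples (2 EtOH, 2 OHT) were compared. Per the submitters' processing notes, TopHat, DESeq and genome build mm9 were used, and versions and settings are not given in the sources used here. The authors deposited 1 table, and per the file headers it holds, for each transcript, 2 group means of normalised reads (signal), their ratio (fold change), its log2 value, and the p-value with its adjusted p-value. The deposited means were solved to whole reads of 2 libraries per group, with 1 read added per library (100% of means solved, against 0.0997% and 0.111% of means moved at random by up to 0.1%). Solved libraries are not linked to labelled samples. The authors' adjusted p under 0.05 was the main test. limma 3.58.1 (voom, R 4.3.3) on solved reads, at least 10 reads in 2 libraries, was the alternative, with other scalings, filters and each library left out. With 2 samples a group, an exact permutation test could not go below p = 0.333. Named genes were all members called, the 5 with the largest fall and the 5 with the largest rise at a mean of at least 50, the 3 most abundant of each subunit, members with several transcripts, the Mrps18 paralogues, and members whose symbol and structure differ. Other genes named by role or motif were chosen after their values were seen. Members and lists were chosen with earlier results of these data known. Lengths and overlaps came from GENCODE M21, promoters from RefSeq GRCm38.p6, and neither was converted to mm9.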

Additional observations from a re-analysis of the deposited data

How the results depend on the processing

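The 4 members called lower by the authors (background 1.85%) became 1 at an adjusted p under 0.01, where no background share was computed. The count was 8 with limma-voom (background 5.49%), 7 with limma-voom and TMM scaling (4.93%) and 8 with limma-voom and no filter (4.43%). It was 1 to 34 with each library left out, and the background moved too. The share was 1.17% beside the 1 (without OHT library A) and 9.48% beside the 34 (without EtOH library A). No setting tried called a member higher. With each library left out, the large-subunit median log2 fold change ran from -0.70 to -0.28 and the small-subunit median from -0.68 to -0.28. Of the members named by the rule, those that changed sign there were Mrps21 (-0.18 to 0.28, and -0.000604 without OHT library B), Mrpl41 (-0.065 to 0.21), Mrpl14 (-0.019 to 0.21), Mrpl10 (-0.19 to 0.026) and Mrps18c (-0.51 to 0.0090), and Mrpl10 was 0.084 with reads expanded for the ceiling. Over all 75 members fitted, 2 to 8 had a positive sign with a library left out, against 4 with all libraries. The cause was not tested. Both medians were negative under every scaling, filter and grouping tried. Beside like-level transcripts, 69 of 79 members lay below their neighbours' median by the mean of both groups or with 30 neighbours, and 71 by reads per base. No paired analysis was possible because the deposited columns carry no replicate numbers and the solved libraries cannot be linked to those of the labels. Left-out fits leave an arm with 1 library, assumed to vary like the other arm.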

Other observations

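Members that came closest to the authors' threshold from above were Mrpl35 (adjusted p = 0.0674) and Mrps22 (0.0813) in the authors' deposited table. Among small-subunit proteins without a bacterial counterpart, all 9 had a negative log2 fold change. So did 14 of 16 small-subunit bacterial homologues, 16 of 18 mitochondria-specific large-subunit proteins and 63.1% of other transcripts of like level. The members' normalised reads per kilobase in the EtOH group ran, for those with an EtOH mean of at least 100, down to 40.1 for Mrpl1, 66.5 for Mrpl15 and 69.8 for Mrps25. EtOH library B was the highest of the 4 libraries in 68 of the 72 members with a mean of at least 50. OHT library A was the lowest in 51 and OHT library B in 15.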
